A study of Mus musculus with 4 samples.

Results

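The genes described here make hemoglobin or mark red blood cells and their precursors: *Hba-a1* and *Hba-a2* (the adult alpha globin copies), *Hbb-b1* and *Hbb-b2* (adult beta globin), *Alas2*, *Slc4a1*, *Epor*, *Klf1* and *Bpgm*. They were found in the deposited table by gene name, and where a name stood on several rows the row with the highest mean FPKM of both genotypes was kept. The 9 names stand on 8 rows, of which 7 were kept, out of 30506 rows in all and 22483 with a gene name. The RNA was poly(A) RNA from whole mammary tissue of 4 virgin mice, 2 wild-type mice (miR-21+/+) and 2 mice homozygous for a miR-21 deletion (miR-21-/-). All 4 were 2 months old according to the labels and of the same mixed background, 129SV::FVB/N::C57BL/6. The comparison asks which transcripts differ in the gland when miR-21 is absent.

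Hemoglobin is built from alpha and beta chains, each carrying heme, and red cell precursors make both chains in step. Heme synthesis in these cells begins with ALAS2, the erythroid form of 5-aminolevulinate synthase. Erythropoietin acts through its receptor EPOR and STAT5 to keep the precursors alive, KLF1 switches on the adult beta globin gene, SLC4A1 (band 3) is the anion exchanger of the red cell membrane, and BPGM makes the bisphosphoglycerate that lowers the oxygen affinity of hemoglobin. Mature red cells of mammals have no nucleus, and young ones in the circulation, the reticulocytes, still carry globin mRNA, so that any tissue taken with its blood contains some.

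Each genotype has a single FPKM value (fragments per kilobase of exon, corrected for the fragments mapped), pooled by the authors over both mice. No value per mouse is given, so no difference below has a replicate check or a test, and library depth is unknown. Differences are given as log2 ratios of the miR-21-/- over the miR-21+/+ FPKM. The row that holds *Mir21* with its host gene *Vmp1* was at 42.5 FPKM in miR-21+/+ and 68.2 FPKM in miR-21-/- glands. It measures the long host transcript and not the mature microRNA, so it does not check the genotype labels.

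The globin copies are so alike that many reads cannot be assigned to one of them, which is why their sequences come first. In the mm9 annotation (GENCODE) *Hba-a1* lies on the plus strand of chromosome 11 from 32183511 to 32184465 and *Hba-a2* from 32196489 to 32197301, each with 3 exons. The 429 coding bases of the copies differ at a single position, C381T, counted from the first coding base of *Hba-a1*. The coding bases 361 to 401 are shown with that position in capitals.
Hba-a1: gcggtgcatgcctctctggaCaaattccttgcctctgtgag
Hba-a2: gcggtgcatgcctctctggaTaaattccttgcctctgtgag
Of the windows of 50 bases in the longest *Hba-a2* transcript, 86.9% occurred unchanged in *Hba-a1*, and 67.5% of the *Hba-a1* windows occurred in *Hba-a2*. Windows of 50 bases were chosen here because the read length is not given in the sources used here.

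For adult beta globin the annotation places *Hbb-b2* at 110961038 to 110962510 of chromosome 7, minus strand, and *Hbb-b1* at 110975048 to 110976610, again with 3 exons each. Their 444 coding bases also differ at 1 position, C417T, counted from the first coding base of *Hbb-b1*. The coding bases 397 to 437 are shown in the same way.
Hbb-b1: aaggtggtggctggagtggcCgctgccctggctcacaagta
Hbb-b2: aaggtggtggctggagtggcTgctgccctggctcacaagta
In the longest transcripts 58.3% of the *Hbb-b2* and 52.3% of the *Hbb-b1* windows of 50 bases occurred in the other copy. None of the windows of *Alas2*, *Slc4a1*, *Epor*, *Klf1* or *Bpgm* occurred in the coding transcripts of another gene. The table uses other names at this locus. Its row *Hbb-b1,Hbb-b2* (chromosome 7, 110961038 to 110962437) lies on the annotated *Hbb-b2*, and the annotated *Hbb-b1* is covered by a row called *Beta-s* (110975037 to 110976442). In RefSeq *Beta-s* is an older name of *Hbb-bs*, and the names *Hbb-b1* and *Hbb-b2* are kept for other copies. The mouse beta globin locus is known to differ between laboratory strains, and the haplotypes of these mice were not analysed here. *Beta-s* is not among the 9 names, but it is given beside them because it shares its coding sequence with them.

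The promoters are shown because the globin rows and *Alas2* were all lower in miR-21-/- glands. Each stretch holds the 150 bases before the RefSeq start, found by exact match in mm9, with capitals for the 4 motifs searched on both strands: CACCC (the core bound by KLF1), GATAA (by GATA1), TATAA (the TATA box) and CCAAT. The alpha stretch occurred at 2 places, chr11:32183522-32183671 and chr11:32196339-32196488 on the plus strand, directly before each alpha row. The stretch named Hbb-bt lies before the *Hbb-b1,Hbb-b2* row at chr7:110962438-110962587 on the minus strand, and Hbb-bs before *Beta-s* at chr7:110976443-110976592 on the minus strand. That of Alas2 lies at chrX:146981810-146981959 on the plus strand.
Hba-a1: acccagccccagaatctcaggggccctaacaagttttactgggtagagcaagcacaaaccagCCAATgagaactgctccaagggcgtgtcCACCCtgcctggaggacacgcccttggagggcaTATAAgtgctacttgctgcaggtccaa
Hbb-bt: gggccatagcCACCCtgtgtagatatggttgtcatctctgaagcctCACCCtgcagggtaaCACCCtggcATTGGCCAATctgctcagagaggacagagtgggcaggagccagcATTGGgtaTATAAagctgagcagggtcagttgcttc
Hbb-bs: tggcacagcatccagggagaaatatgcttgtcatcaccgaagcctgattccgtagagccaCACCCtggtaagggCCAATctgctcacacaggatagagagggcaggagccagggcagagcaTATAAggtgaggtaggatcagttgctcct
Alas2: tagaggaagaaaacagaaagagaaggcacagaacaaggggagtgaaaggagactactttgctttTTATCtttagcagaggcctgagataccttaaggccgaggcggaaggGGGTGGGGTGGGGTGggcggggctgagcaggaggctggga
The alpha promoters were identical over the 247 bases compared, whereas those of *Hbb-bs* and *Hbb-bt* matched at 51.0% of 249 bases. Within the 250 bases before the start, the windows of *Hba-a1*, *Hba-a2*, *Hbb-bs* and *Hbb-bt* held all 4 motifs. Their GATAA matches lay between −209 and −182, before the 150 bases printed. Of the 32851 promoter windows in the RefSeq table (GRCm38.p6), 52.0% held CACCC, 22.6% GATAA, 22.8% TATAA and 33.9% CCAAT, and 0.968% held all 4. *Alas2* held all but CCAAT, *Klf1* all but TATAA, *Epor* CACCC and GATAA, and *Bpgm* CCAAT alone. By symbol, 6 of the 9 names had a promoter window. In a few places the matches adjoin or overlap, as ATTGG and CCAAT do in Hbb-bt. The motifs searched include those of erythroid factors and the alpha windows are copies of each other, so these counts are a description and not a test. A match describes these letters and is not a binding site, and its part in the lower values was not tested. The GENCODE spans of *Hba-a1*, both beta genes and *Alas2* begin upstream of these RefSeq starts.

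Alpha globin mRNA was 2.46-fold lower in miR-21-/- than in miR-21+/+ glands. The kept row *Hba-a1,Hba-a2* (chromosome 11, 32183672 to 32184493, on the annotated *Hba-a1*) was at 588 FPKM in miR-21+/+ and 239 FPKM in miR-21-/- glands, a log2 ratio of −1.30. The other row of the same names (32196489 to 32197310, on *Hba-a2*) was at 562 and 227 FPKM, a log2 ratio of −1.31. The rows stood in a ratio of 1.05 for miR-21+/+ and 1.06 for miR-21-/- glands. Since these copies share most of their reads, the rows are not separate measurements. In whole tissue, fewer cells of a type and less RNA per cell cannot be told apart, and this holds for all values given here.

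Beta globin mRNA was lower by nearly the same factor. The row *Hbb-b1,Hbb-b2* was at 396 FPKM in miR-21+/+ and 166 FPKM in miR-21-/- glands, a log2 ratio of −1.25, or 2.38-fold lower. *Beta-s* was at 591 and 252 FPKM, a log2 ratio of −1.23. *Beta-s* was thus above the *Hbb-b1,Hbb-b2* row by 1.49 times in miR-21+/+ and 1.51 times in miR-21-/- glands. The log2 ratios of the 4 globin rows lay between −1.31 and −1.23, on 2 chromosomes. Ranked by FPKM among the 22483 named rows, these 4 rows stood between 56 and 120 in miR-21+/+ and between 188 and 297 in miR-21-/- glands.

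**Figure D1:**
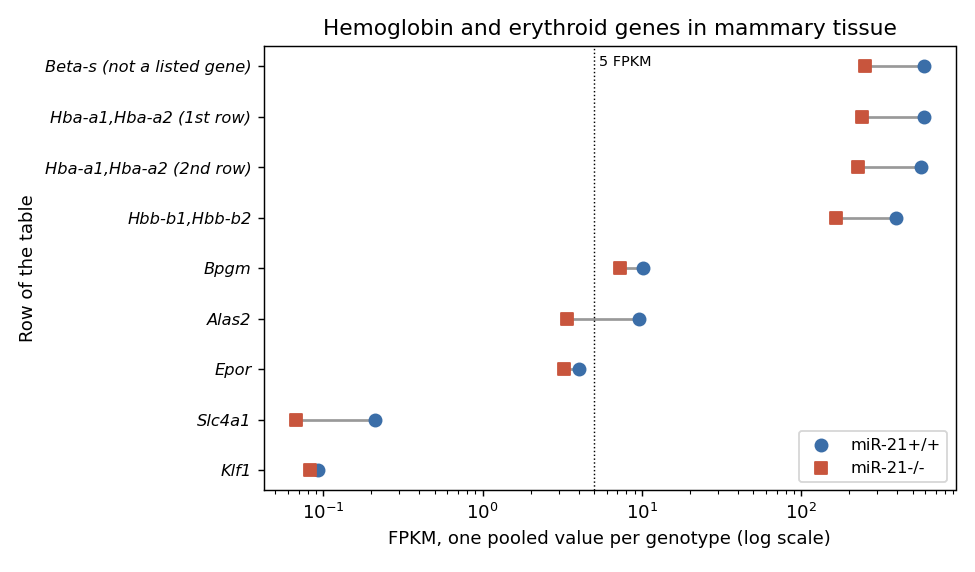
FPKM of the hemoglobin and erythroid rows and of *Beta-s*, on a log axis. Each circle is the pooled value of the miR-21+/+ mice and each square that of the miR-21-/- mice, and the grey line joins the values of a row. The 4 globin rows were at 396 to 591 FPKM in miR-21+/+ and 166 to 252 FPKM in miR-21-/- glands. Every other row was also lower in miR-21-/- glands, but *Bpgm*, *Epor* and *Klf1* by less than 2-fold. *Slc4a1* and *Klf1* were below 1 FPKM in both.

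The balance of the chains differed little between genotypes. With the rows of each chain summed, alpha over beta FPKM was 2.91 for miR-21+/+ and 2.80 for miR-21-/- glands. With *Beta-s* added to the beta sum, an alternative chosen after seeing the data, alpha stood at 1150 and beta at 986 FPKM in miR-21+/+ and at 466 and 418 FPKM in miR-21-/- glands, so that the ratios were 1.17 and 1.11. The level of this ratio thus rests on whether *Beta-s* is counted, and it was nearly the same in both genotypes either way. The 4 globin rows together made up 0.562% of the FPKM sum over named rows for miR-21+/+ and 0.249% for miR-21-/- glands.

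*Alas2* (chromosome X, 146981960 to 147005165, plus strand, 11 exons), the erythroid enzyme that starts heme synthesis, was at 9.60 FPKM in miR-21+/+ and 3.40 FPKM in miR-21-/- glands. Its log2 ratio was −1.50, or 2.83-fold lower. It exceeded 5 FPKM in miR-21+/+ glands only. In the annotation 311 of its 2403 exon bases (12.9%) overlap exons of *Apex2* on the opposite strand, and a library that does not mark strand cannot assign reads from them. The *Apex2* row of the table (147005762 to 147078460) lies beyond the end of the *Alas2* row and does not measure the shared bases.

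*Bpgm* (chromosome 6, 34426356 to 34455610, plus strand, 3 exons) was at 10.1 FPKM in miR-21+/+ and 7.30 FPKM in miR-21-/- glands. Its log2 ratio of −0.47 is under 2-fold. *Epor* (chromosome 9, 21763343 to 21768020, minus strand, 8 exons) was at 4.05 and 3.23 FPKM, a log2 ratio of −0.33. Both genes are also expressed by other cells, the former as an enzyme of the glycolytic side path and the latter in endothelium.

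*Slc4a1* (chromosome 11, 102210134 to 102226595, minus strand, 20 exons), the most abundant membrane protein of red cells, was at 0.211 FPKM in miR-21+/+ and 0.0669 FPKM in miR-21-/- glands. *Klf1* (chromosome 8, 87425827 to 87429194, plus strand, 3 exons), the erythroid transcription factor, was at 0.0919 and 0.0827 FPKM. Their log2 ratios of −1.65 and −0.15 rest on values near 0, where a single read can move a ratio, and with a pseudocount of 1 FPKM that of *Slc4a1* was −0.18. Among the kept rows the order of levels in miR-21+/+ glands was thus alpha globin, beta globin, *Bpgm*, *Alas2*, *Epor*, *Slc4a1* and *Klf1*. It was the same in miR-21-/- glands except that *Klf1* stood above *Slc4a1*. The beta globin row *Beta-s*, which is not a kept row, stood above the kept alpha row in both genotypes. Its levels were 591 against 588 FPKM in miR-21+/+ and 252 against 239 FPKM in miR-21-/- glands. Without values per mouse it cannot be said which neighbours in this order differ.

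Of the 7 kept rows, 4 exceeded 5 FPKM in at least 1 genotype, and 3 of these (*Hba-a1,Hba-a2*, *Hbb-b1,Hbb-b2* and *Alas2*) were lower in miR-21-/- glands by 2-fold or more. None was higher by 2-fold or more. All 7 log2 ratios were below 0, but 2 of them rest on values under 1 FPKM in both genotypes. The median of all named rows above 5 FPKM was itself below 0, and the share of named rows below 0 was not computed. Among the 9714 named rows above 5 FPKM in at least 1 genotype, 144 (1.48%) were lower by 2-fold or more and 121 (1.25%) were higher. *Alas2* passed the minimum through miR-21+/+ glands alone. Above 5 FPKM in both genotypes, 2 of the kept rows, alpha and beta globin, were lower by 2-fold or more, beside 58 of 9053 named rows (0.641%). At 1.5-fold the share lower was 4.33%, and the count among the kept rows stayed at 3. Among the 556 named rows above 100 FPKM in miR-21+/+ glands, where the globin rows belong, 23 (4.14%) were lower by 2-fold or more. The 4 globin rows are among these 23, and 12 others are rows of major urinary protein (*Mup*) genes on chromosome 4, another family of close copies. The median log2 ratio of the 9714 rows was −0.03. With the columns brought to the same FPKM total over all rows, every log2 ratio shifted by −0.63 and the share lower became 9.46% against 0.201% higher. The totals over all rows were 759295 FPKM for miR-21+/+ and 1.1756e+06 FPKM for miR-21-/- glands, and over named rows 380567 and 355385 FPKM. The excess in miR-21-/- glands thus lies in rows without a gene name. With equal totals over named rows the shift was 0.10, with 1.19% lower and 1.79% higher. With the median ratio of named rows above 5 FPKM set to 1 it was 0.03, with 1.37% lower and 1.38% higher.

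**Figure D2:**
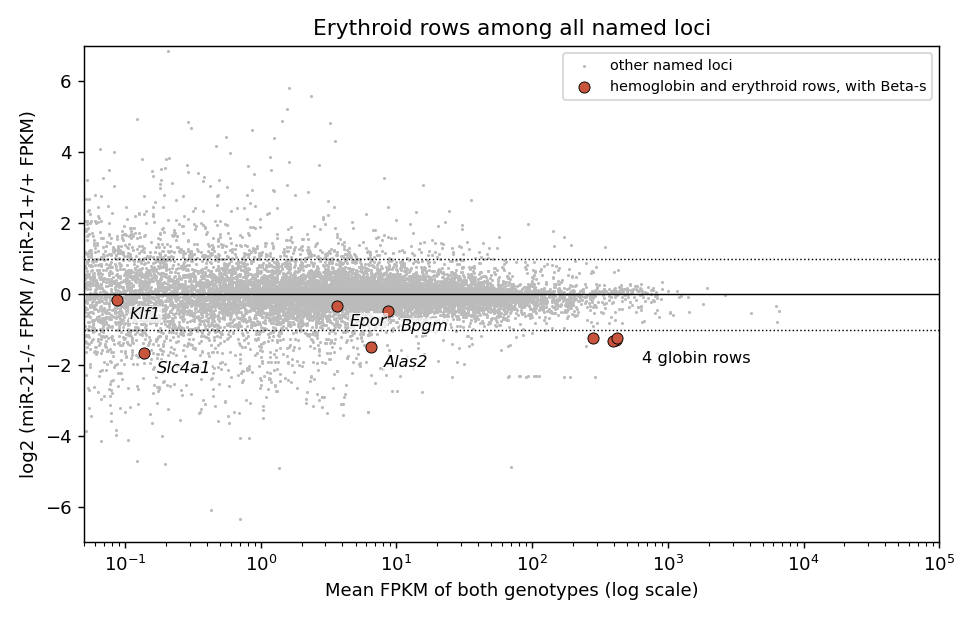
Log2 ratio of miR-21-/- over miR-21+/+ FPKM against the mean FPKM of both genotypes (log axis) for named rows above 0 in both and above 0.05 FPKM on average. Grey points are other named rows, filled red points the hemoglobin and erythroid rows with *Beta-s*, and dotted lines mark 2-fold. The 4 globin rows lie between −1.31 and −1.23, at a level where most rows lie near 0.

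The other heme synthesis genes found stayed under 2-fold, like most named rows above 5 FPKM. Of 15 listed genes of heme synthesis and mitochondrial iron and heme transport, 14 were found and all 14 exceeded 5 FPKM, but *Alas2* alone was lower by 2-fold or more. Among all named rows above that minimum 1.48% were lower by 2-fold or more, so this count does not set the pathway apart. The median log2 ratio of the 14 was −0.14, with 13 below 0 and 1 above. The share of all named rows below 0 was not computed. With equal FPKM totals over named rows the median was −0.04. *Alas1*, the form of the first enzyme that all cells use, was at 52.2 FPKM in miR-21+/+ and 45.4 FPKM in miR-21-/- glands (log2 ratio −0.20). *Fech*, ferrochelatase, which inserts iron in the last step, was at 31.0 and 25.9 FPKM (−0.26). *Tmem14c*, which moves a heme precursor into the mitochondrion and had the highest mean level of the list, was at 51.8 and 46.0 FPKM (−0.17). *Alas1* thus stood above *Alas2* in both genotypes.

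Several genes that define red cell precursors were near 0 in both genotypes. Of 10 erythroid transcription factors 4 were under 1 FPKM in both, among them *Klf1* and *Gata1*, the latter at 0.254 FPKM in miR-21+/+ and 0.364 FPKM in miR-21-/- glands. Between 1 and 5 FPKM were 4 others, *Myb* at 4.52 FPKM in miR-21+/+ and 2.63 FPKM in miR-21-/- glands, *Zfpm1* at 2.99 and 2.82 FPKM, *Bcl11a* at 1.51 and 1.56 FPKM and *Tal1* at 1.26 and 1.37 FPKM. The 2 above 5 FPKM are expressed by many other cells. *Ldb1*, an adaptor of these complexes, was at 42.6 and 49.6 FPKM, and *Lmo2*, which is also endothelial, at 15.4 and 12.9 FPKM. *Rhag*, the Rh-associated glycoprotein, was at 0.0249 FPKM in miR-21+/+ and 0.0173 FPKM in miR-21-/- glands, and *Hemgn*, hemogen, at 0.0280 and 0.0260 FPKM. *Ahsp*, also listed, was not found under the names searched and has no value here.

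Of the 20 membrane and skeleton genes 19 were found, 8 were under 1 FPKM in both genotypes and 7 exceeded 5 FPKM. None of the 7 differed by 2-fold, 3 were lower and 4 higher, and the median log2 ratio was 0.07. *Ank1*, ankyrin 1, was at 2.59 and 3.96 FPKM. *Aqp1*, the water channel of red cells that capillary endothelium also makes, had the highest level, 144 FPKM in miR-21+/+ and 180 FPKM in miR-21-/- glands. Among 21 genes of reticulocytes and late erythroid cells, 20 were found and 10 exceeded 5 FPKM. None of these 10 differed by 2-fold, 7 were lower and 3 higher, and the median was −0.17. Most named rows above 5 FPKM stayed under 2-fold as well, so these counts do not set the membrane or reticulocyte genes apart. *Bnip3l*, which clears mitochondria from reticulocytes, was at 51.7 and 43.5 FPKM. *Car1*, carbonic anhydrase 1 of red cells, was at 5.70 FPKM in miR-21+/+ and 3.47 FPKM in miR-21-/- glands, a log2 ratio of −0.72.

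Genes of the erythropoietin pathway above 5 FPKM stayed under 2-fold, like most named rows above that minimum, with log2 ratios on both sides of 0. *Epo* itself, the kidney hormone, is listed at 0 in both genotypes. Of 17 listed genes 13 exceeded 5 FPKM, none differed by 2-fold, 9 had log2 ratios above 0 and 4 below, and the median log2 ratio was 0.34. Among all named rows above that minimum 1.48% were lower and 1.25% higher by 2-fold or more. The share of all named rows above 0 was not computed, so the counts by sign have nothing to stand beside. With equal FPKM totals over all rows 4 were above 0 and 9 below, and the median turned to −0.29. With equal totals over named rows the median was 0.44, and with the median ratio of named rows above 5 FPKM set to 1 it was 0.37. *Stat5a*, the transducer that prolactin also uses in mammary epithelium, was at 22.8 FPKM in miR-21+/+ and 39.0 FPKM in miR-21-/- glands (log2 ratio 0.78). *Kit*, the stem cell factor receptor, was at 20.1 and 35.9 FPKM (0.84), and *Cish*, a feedback inhibitor, at 3.31 and 6.23 FPKM (0.91). *Pim1*, a STAT5 target kinase, was at 20.9 and 12.4 FPKM (−0.75), and *Pim3*, which had the highest mean level, at 50.8 and 36.3 FPKM (−0.48). These genes are shared with other cytokine pathways of the gland.

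Enzymes that red cells depend on but other cells also make did not differ by 2-fold where above 5 FPKM, like most named rows above that minimum. This held for the 15 glycolytic genes above 5 FPKM, with a median of −0.04 and *Bpgm* at the lower end of their range from −0.47 to 0.51. *Aldoa*, aldolase A, was at 628 FPKM in miR-21+/+ and 620 FPKM in miR-21-/- glands. The 9 antioxidant genes had a median of −0.15, with 7 below 0 and 2 above. *Cat*, catalase, was at 369 and 197 FPKM (log2 ratio −0.91), and *Sod1*, on a row shared with *Scaf4*, at 483 and 340 FPKM (−0.51), while *Gclc*, which starts glutathione synthesis, was at 20.4 and 31.2 FPKM (0.61). Of the genes for clearing hemoglobin and heme and handling iron, 13 exceeded 5 FPKM, with a median of −0.11. *Hp*, haptoglobin, which binds free hemoglobin, was at 220 and 270 FPKM, *Cd163*, its macrophage receptor, at 35.6 and 26.0 FPKM, *Hmox1*, heme oxygenase, at 33.3 and 37.7 FPKM, and *Fth1*, ferritin heavy chain, at 1240 and 1180 FPKM.

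**Figure D3:**
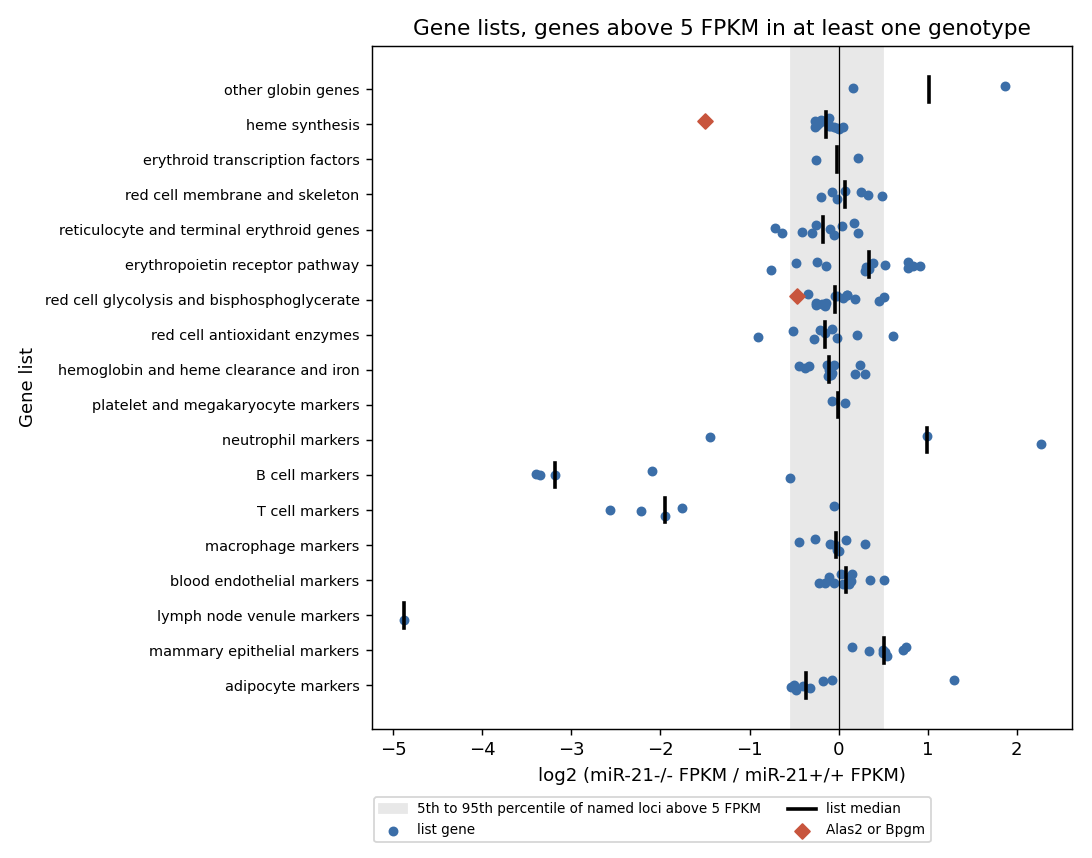
Log2 ratios of miR-21-/- over miR-21+/+ FPKM for the genes of 18 lists that exceeded 5 FPKM in at least 1 genotype. Each point is a gene, diamonds are *Alas2* and *Bpgm*, black bars are list medians, and the grey band runs from the 5th to the 95th percentile of named rows, −0.54 to 0.50. *Alas2* lies at −1.50, apart from the other heme synthesis genes, and the B and T cell markers lie to the left of it in most cases.

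Of the other globin genes, the 2 above 5 FPKM were not lower in miR-21-/- glands by the FPKM values as given. Of 9 listed, 7 were found, and 5 of these were under 1 FPKM in both genotypes, too low to show a difference. Of the 2 above 5 FPKM 1 was higher by 2-fold or more, beside 1.25% of all named rows above that minimum. With equal FPKM totals over all rows 1 of the 2 had a log2 ratio below 0 and 1 above. *Cygb*, cytoglobin of fibroblasts, was at 31.9 FPKM in miR-21+/+ and 35.6 FPKM in miR-21-/- glands (log2 ratio 0.16). *Mb*, the oxygen store of muscle, was at 2.07 and 7.54 FPKM, higher by 1.86 on the log2 scale. It passed the minimum through miR-21-/- glands alone. The embryonic globins *Hba-x*, *Hbb-y* and *Hbb-bh1* are listed at 0 in both genotypes.

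Genes above 5 FPKM beside the globin rows did not differ by 2-fold, as most named rows did not. Among all named rows above 5 FPKM 1.48% were lower and 1.25% higher by that much, so this does not set the surroundings apart. Within 250 kb of the alpha rows 13 other named rows were found, and the 6 above 5 FPKM had log2 ratios from −0.43 to 0.07. *Nprl3*, whose introns hold the distant alpha globin enhancers, was at 7.75 FPKM in miR-21+/+ and 7.66 FPKM in miR-21-/- glands. *Mpg*, on the same span, was at 6.94 and 6.80 FPKM, *Rhbdf1* at 24.3 and 25.6 FPKM, *Sh3pxd2b* at 26.3 and 23.3 FPKM, *Ubtd2* at 13.6 and 13.9 FPKM and *Stk10* at 7.57 and 5.63 FPKM. Under 5 FPKM, *Nsg2* was at 2.34 and 0.431 FPKM and *Il9r* at 0.974 and 0.121 FPKM. All 31 other named rows within 250 kb of the *Hbb-b1,Hbb-b2* row, most of them olfactory receptor genes, are listed at 0 in both genotypes. Around *Alas2*, *Bpgm*, *Epor*, *Klf1* and *Slc4a1*, the 3, 4, 13, 21 and 12 neighbours above 5 FPKM also stayed under 2-fold, like most named rows above that minimum.

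**Figure D4:**
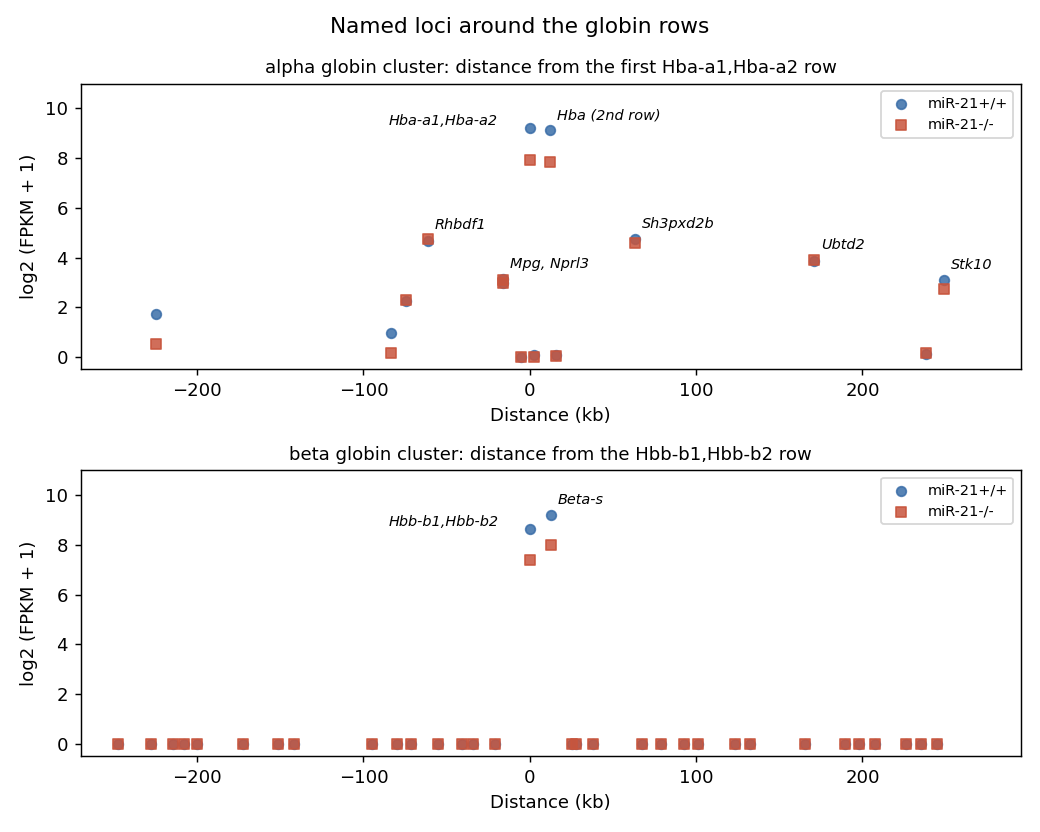
Level of named rows, log2(FPKM + 1), against their distance in kb from the kept alpha row (top) and the beta row (bottom). Circles are miR-21+/+ and squares miR-21-/- values. At the alpha cluster the globin rows alone differ by 2-fold among rows above 5 FPKM, and at the beta cluster every row besides the globin rows is at 0.

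Markers of other blood cells also differed between the libraries, and their part in the globin difference was not tested. Of 8 B cell markers 5 exceeded 5 FPKM in at least 1 genotype, and 4 of these were lower by 2-fold or more in miR-21-/- glands. The share among all named rows above that minimum was 1.48%. Among the 4 were *Ms4a1* at 5.61 FPKM in miR-21+/+ and 0.549 FPKM in miR-21-/- glands (log2 ratio −3.36), *Faim3* (−3.18) and *Cd79b* (−2.09). *Cd79a* shares a row with *Arhgef1* and was at −0.54. Of 8 T cell markers 5 exceeded 5 FPKM, and 4 of these were likewise lower. They were *Cd3e* at 7.26 and 1.22 FPKM (−2.57), *Cd3g* (−2.22), *Lat* (−1.95) and *Cd2* (−1.76), but not *Thy1* (−0.05), which fibroblasts also make. The 4 lower markers in each list passed the minimum through miR-21+/+ glands alone. With no minimum 7 of the 8 markers in each list were lower by 2-fold or more. The share of all named rows without a minimum was not computed, so that count has nothing to stand beside. *Glycam1*, made by the venules of lymph nodes and by mammary epithelium, was at 136 FPKM in miR-21+/+ and 4.63 FPKM in miR-21-/- glands. The other venule markers were low, *Fut7* at 0.675 and 0.217 FPKM and *Madcam1*, which was the higher in miR-21-/- glands, at 0.576 and 1.56 FPKM, while *Chst4* was at 0.571 FPKM in miR-21+/+ and is listed at 0 in miR-21-/- glands.

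Platelet and vessel markers above 5 FPKM differed by less than 2-fold, like most named rows above that minimum. The summed FPKM of the 11 platelet markers was 58.0 for miR-21+/+ and 58.8 for miR-21-/- glands, mostly from *Pf4* at 39.5 and 41.4 FPKM, which macrophages also make, and 7 of the 11 were under 1 FPKM in both. The 12 blood endothelial markers all exceeded 5 FPKM and none differed by 2-fold. Their sum was 296 FPKM in miR-21+/+ and 319 FPKM in miR-21-/- glands, with *Cdh5*, VE-cadherin, at 43.8 and 47.3 FPKM. The 8 macrophage markers summed to 809 and 801 FPKM, with the row that *Cd68* shares with *Eif4a1* and *Senp3* the highest (255 and 252 FPKM). Of 10 neutrophil markers found, 3 exceeded 5 FPKM, and of these 1 was lower and 1 higher by 2-fold or more. With no minimum 5 were lower and 1 higher, but the share of all named rows without a minimum was not computed. *Ltf*, lactoferrin, which mammary epithelium also makes, was at 99.6 and 36.6 FPKM. *S100a9* was at 2.24 and 0.695 FPKM and *S100a8* at 1.20 and 0.827 FPKM. *Ngp*, *Camp* and *Mpo* were under 1 FPKM in both genotypes, with log2 ratios of −2.79, −1.79 and −2.53 on values near 0. *Prtn3*, proteinase 3, was at 2.05 and 9.89 FPKM, and *Retnlg* at 6.10 and 12.1 FPKM.

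Markers of the labelled tissue were present in both genotypes. The 8 epithelial markers summed to 643 FPKM in miR-21+/+ and 878 FPKM in miR-21-/- glands, with all 8 higher and none by 2-fold, and *Krt19* at 223 and 247 FPKM. With equal FPKM totals over all rows the direction turned, with 6 of the 8 lower and a median of −0.12 in place of 0.51. With equal totals over named rows the median was 0.61, and with the median ratio of named rows above 5 FPKM set to 1 it was 0.54. The 8 adipocyte markers summed to 17668 and 13423 FPKM, with 7 lower and *Fabp4*, the fatty acid carrier, at 7677 and 5523 FPKM. *Lep*, leptin, was higher by 1.29 on the log2 scale, at 27.7 FPKM in miR-21+/+ and 67.9 FPKM in miR-21-/- glands.

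With a single value per genotype a gene's pattern is its log2 ratio alone. The 5 named rows above 5 FPKM nearest to the kept alpha row in log2 ratio were *Actc1*, *Cidea*, *Mir142*, *Sept1* and *Pir*, all within 0.0466 of it. Those nearest to the *Hbb-b1,Hbb-b2* row were *Slit2*, *Acacb*, *Gbp10*, *Mir142* and *Ppa1*, within 0.0421. Only *Ppa1*, an inorganic pyrophosphatase, exceeded 100 FPKM in miR-21+/+ glands among these rows, at 106 against 45.9 FPKM in miR-21-/- glands.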

How the data were processed

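Poly(A) RNA of 2 miR-21+/+ and 2 miR-21-/- mice was sequenced as single-end reads, which the authors aligned to mm9 with TopHat; the submitters' processing notes also name CASAVA. The deposited table is Cuffdiff output with 1 FPKM value per locus and genotype. Versions, gene annotation and normalization options are not given in the sources used here. The authors' columns of fold change, test statistic, p-value and q-value hold their own comparison and were not used. The depth of each library is unknown.

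Log2 ratios were computed from the FPKM values without a pseudocount. The minimum of 5 FPKM in at least 1 genotype is that of the study's methods, a difference was counted at 2-fold, and no test was run. Members, gene lists and limits were chosen with earlier results of these data known. Named were the members, list genes at 2-fold or with the highest mean FPKM of their list, defining precursor genes near 0, neighbours of the globin rows and the 5 nearest rows. *Alas1*, *Fech*, *Lmo2*, *Car1*, *Stat5a*, *Kit*, *Cish*, *Pim1*, *Cat*, *Hp*, *Cd163*, *Hmox1*, *Myb*, *Zfpm1*, *Bcl11a*, *Tal1*, *Ank1*, *Gclc*, *Fut7*, *Madcam1*, *Chst4*, *S100a8*, *S100a9*, *Ngp*, *Retnlg*, *Nsg2*, *Il9r*, *Mpo* and *Camp* were added after their values were seen. Some genes of the lists are not reported here. Starts count from 1. Sequences came from the mm9 genome, GENCODE transcripts and RefSeq promoters. Python 3.11.15, numpy 2.4.6, pandas 2.3.3 and matplotlib 3.10.9 were used.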

Additional observations from a re-analysis of the deposited data

How the results depend on the processing

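No paired analysis was possible because both mice of a genotype share 1 pooled FPKM value, and fits without each mouse were not run for the same reason. An alternative was said to move a log2 ratio when it changed by more than 1.5-fold. All 7 log2 ratios stayed below 0 under every pseudocount, scaling and row choice tried, but these settings could hardly have turned a sign. A pseudocount added to both columns never does. The upward shifts, 0.10 with equal sums over named rows and 0.03 with the median ratio set to 1, are smaller than the value nearest 0, −0.15 for *Klf1*. The signs are therefore not checked by these settings.
Scaling to equal sums over all rows shifted each by −0.63, to −1.93 for *Hba-a1,Hba-a2*, −1.88 for *Hbb-b1,Hbb-b2*, −2.13 for *Alas2*, −1.10 for *Bpgm*, −0.96 for *Epor*, −2.28 for *Slc4a1* and −0.78 for *Klf1*. The list medians became 0.38 for other globins, −0.77 for heme synthesis, −0.65 for erythroid transcription factors, −0.56 for membrane genes, −0.80 for reticulocyte genes, −0.29 for the erythropoietin pathway, −0.67 for glycolysis, −0.78 for antioxidant enzymes and −0.74 for heme clearance. *Slc4a1* was at −0.18 with a pseudocount of 1 FPKM and −0.90 with 0.1 FPKM.
At 3-fold 0 kept rows remained. At 1.5-fold 2 reticulocyte, 5 erythropoietin pathway and 2 antioxidant genes passed, and with a minimum of 1 FPKM 1 membrane gene and 1 reticulocyte gene passed at 2-fold. Alpha over beta was 1.49 and 1.44 in miR-21+/+ and miR-21-/- glands with the highest row of each chain, and 1.17 and 1.11 with *Beta-s* counted.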
